A study of Mus musculus with 24 samples.

Results

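The aryl hydrocarbon receptor pathway was followed through 8 genes in mouse lung: Ahr, Arnt, Ahrr, Tiparp, Cyp1a1, Cyp1a2, Cyp1b1 and Aldh3a1. They were picked by name from the 78275 genes of the deposited count table through their Ensembl identifiers. Of the 8, 6 had enough counts to be tested, among 17490 genes that did. Ahrr and Cyp1a2 did not.

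The receptor, encoded by Ahr, waits in the cytoplasm in a complex with Hsp90 and is switched on by flat aromatic molecules, among them the polycyclic hydrocarbons carried by diesel soot. With a ligand bound it enters the nucleus, pairs with the protein encoded by Arnt and binds DNA at elements built on the core GCGTG. Cyp1a1 is the textbook target and a common mark of recent exposure, and Ahrr and Tiparp are targets that turn the response down.

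The study set 8 groups of 3 lung libraries beside each other, all from male C57BL/6 mice labelled as 20 weeks old, and 6 of the groups had breathed diesel exhaust. The groups were DE+PFD, RIC+DE, DE+RIC, RIC+DE+PFD, DE+PFD+RIC, DE, RIC and C. Exhaust was given for 30 min a day on 5 days a week over about 8 weeks as a model of pulmonary fibrosis, and this alone is the DE group. The antifibrotic drug pirfenidone was added in the DE+PFD group, at 300 mg/kg/day by mouth on 6 days a week, dissolved in 0.5% carboxymethylcellulose. Remote ischemic conditioning (RIC) blocked and released the blood flow of the left leg in 3 cycles of 5 min, on 3 days a week for 4 weeks. It came before the exhaust in the RIC+DE group and during it in the DE+RIC group. The RIC+DE+PFD and DE+PFD+RIC groups had the drug together with conditioning before or during exhaust. The RIC group had conditioning and no exhaust, and the C group had neither. No group is labelled as given the drug's vehicle alone. Nothing in the labels says that the 3 libraries of a group come from separate animals, so p-values measure the spread between these libraries.

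Each library also carries a date. March held 9 libraries with totals of 12224106 to 16925635 counts, October 14 with 3906807 to 11298160, and November 1, DE+RIC 3, with 18494156. All 3 DE libraries are from October and all 3 RIC+DE libraries from March, so these groups share no date, and the labels do not say what was done on it. The lung label was checked. Summed over 6 markers of alveolar type 2 cells the level was 12220 to 86746 CPM, a count scaled to the library total, against 0.121 to 7.72 CPM for 5 liver markers. The DE+RIC 3 library is absorbed by its own date term and adds nothing to fitted DE+RIC values. RIC+DE+PFD 1 stood apart from all other libraries on the first principal component.

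RefSeq promoter windows (GRCm38.p6) were matched for 6 of the 8 genes. The 250 bases before the start are printed for 4 of them, Cyp1a1 and Cyp1b1 as the inducible cytochromes and Tiparp and Ahrr as the feedback genes, because the receptor is known to act through elements of this kind. Capitals mark GCGTG, or CACGC where the core lies on the other strand.
Cyp1a1 promoter, chr9:57697363-57697612, plus strand: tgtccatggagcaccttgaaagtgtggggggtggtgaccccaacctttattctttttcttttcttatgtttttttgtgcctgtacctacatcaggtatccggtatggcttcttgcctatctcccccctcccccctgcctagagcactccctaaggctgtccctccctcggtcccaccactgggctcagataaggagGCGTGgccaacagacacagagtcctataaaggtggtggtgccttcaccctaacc
Cyp1b1 promoter, chr17:79715062-79715311, minus strand: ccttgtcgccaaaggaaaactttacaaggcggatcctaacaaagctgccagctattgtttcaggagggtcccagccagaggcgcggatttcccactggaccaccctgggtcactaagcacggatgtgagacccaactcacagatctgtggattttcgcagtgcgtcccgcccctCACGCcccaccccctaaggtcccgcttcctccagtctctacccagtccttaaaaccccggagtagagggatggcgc
Tiparp promoter, chr3:65528197-65528446, plus strand: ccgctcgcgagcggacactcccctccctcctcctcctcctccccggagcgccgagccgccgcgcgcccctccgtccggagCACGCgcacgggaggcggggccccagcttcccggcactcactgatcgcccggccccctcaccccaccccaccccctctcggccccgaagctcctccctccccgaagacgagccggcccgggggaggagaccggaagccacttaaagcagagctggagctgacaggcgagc
Ahrr promoter, chr13:74292332-74292581, minus strand: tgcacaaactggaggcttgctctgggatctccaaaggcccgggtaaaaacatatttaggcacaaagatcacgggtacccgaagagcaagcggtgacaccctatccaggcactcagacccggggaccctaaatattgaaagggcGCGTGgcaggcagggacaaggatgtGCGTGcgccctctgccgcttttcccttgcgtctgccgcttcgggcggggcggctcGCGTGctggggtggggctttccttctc

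The Cyp1a1 window held 1 core, 54 bases before the start. The Cyp1b1 window held 1 at 76 bases, the Tiparp window 1 at 170 bases, and the Arnt window 1 at 29 bases. The Ahrr window held 3, at 107, 82 and 27 bases. The Cyp1a2 window held 0. The core is short, and 28.2% of 32851 promoter windows of this length hold at least 1 on either strand. At least 3 cores were found in 2.77% of windows. The longer form TNGCGTG was present in 4.1% of windows and, of the 6 genes, in Ahrr alone. These are matches of letters and were not tested as binding sites. Bases further upstream than these 250 were not searched, so any element there is missed.

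The 8 genes spanned a wide range of levels. Per kilobase of exon, the median over the 24 libraries was highest for Aldh3a1, an aldehyde dehydrogenase, at 22.7 CPM per kb. Ahr followed at 9.40, Arnt at 7.27 and Tiparp at 6.60 CPM per kb. Cyp1a1 and Cyp1b1 sat lower, at 2.40 and 1.86 CPM per kb, although Cyp1a1 reached 105 CPM per kb in its highest library. Ahrr had a median of 0.0380 CPM per kb and Cyp1a2 one of 0. In bulk lung a lower level can mean fewer cells of a type or less RNA per cell, and these cannot be told apart. For each of the 8 genes, none of the 7 gaps between neighbours in the order of group means exceeded the larger SD of the pair, and all neighbours overlapped.

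**Figure D1:**
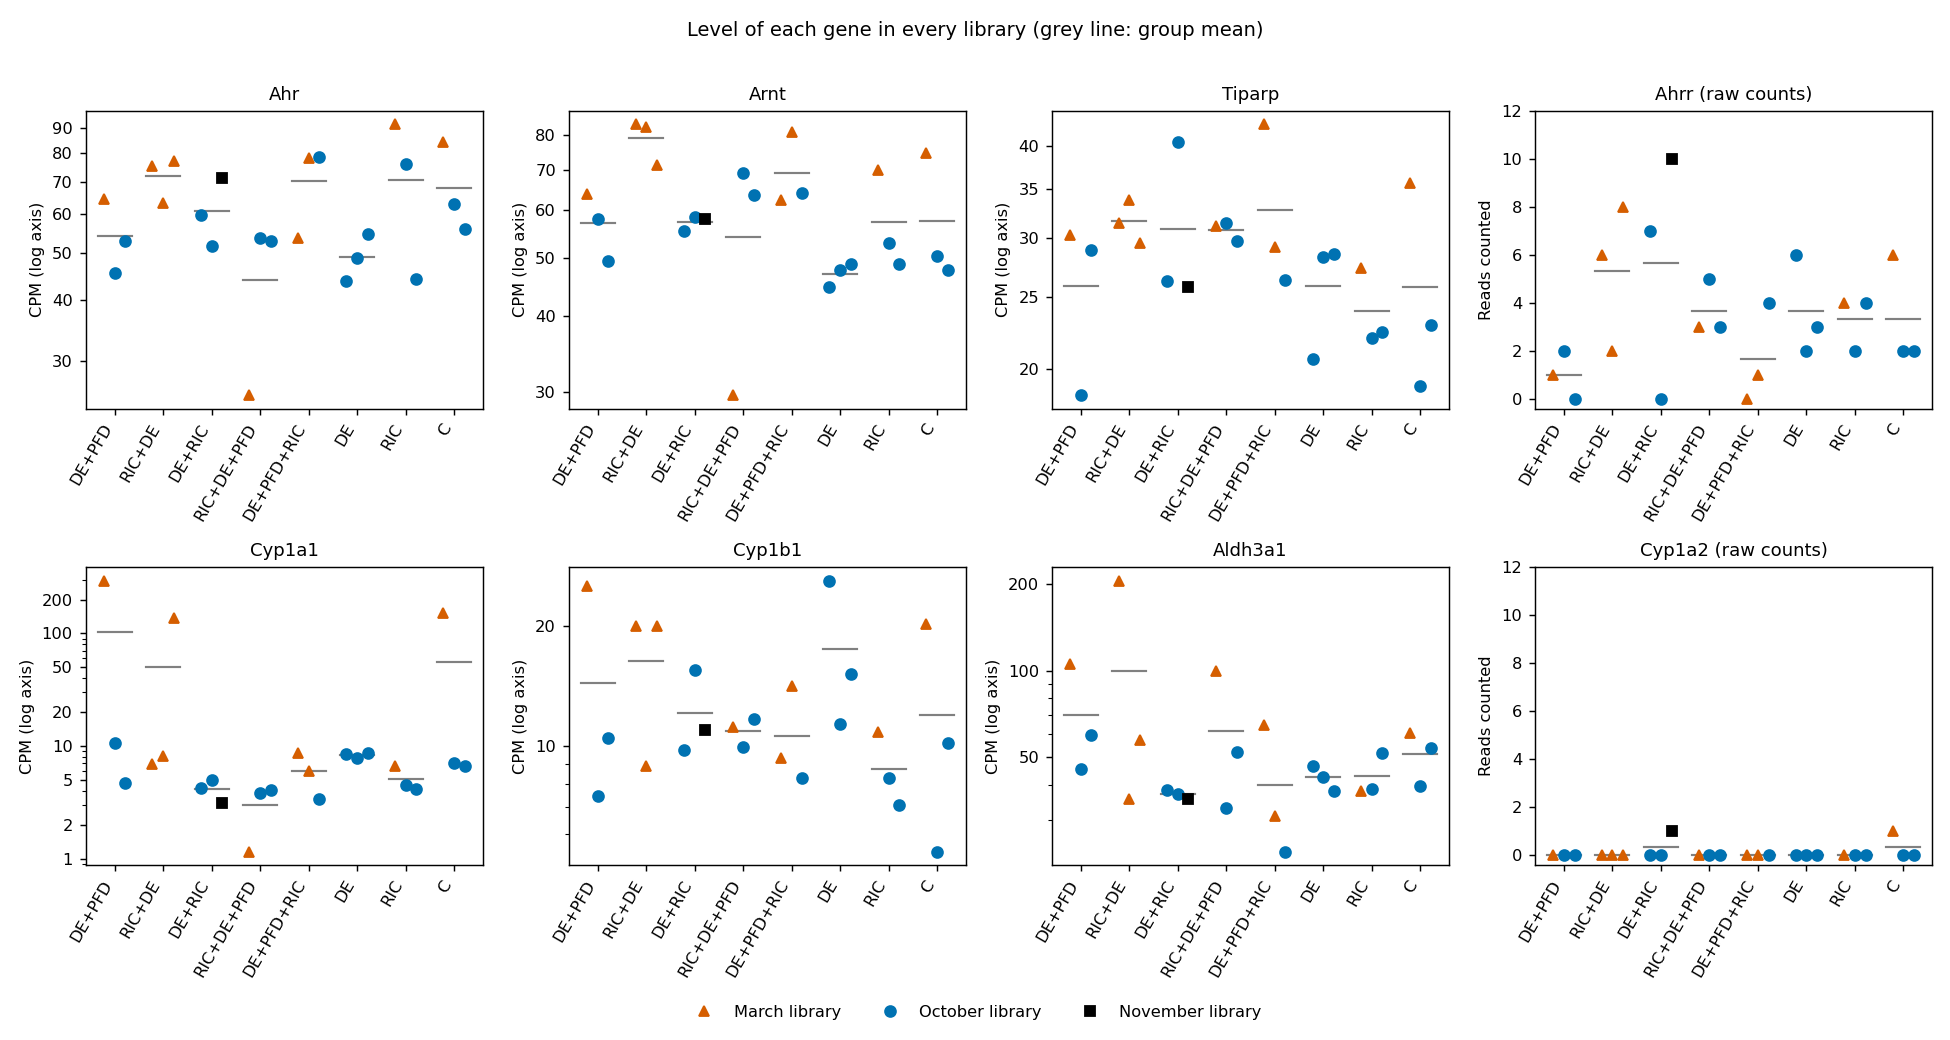
Level of each gene in the 24 libraries, in CPM on a log axis (Ahrr and Cyp1a2 as raw counts), by group, with the March, October and November libraries as triangles, circles and squares and group means as grey lines. Cyp1a1 exceeds 100 CPM in 3 March libraries and stays at or below 10.7 CPM in the other 21.

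Cyp1a1, the monooxygenase that oxidises aromatic hydrocarbons, was very high in 3 libraries and low in 21. In lungs with exhaust and a treatment it was measured at 294, 10.7 and 4.67 CPM in DE+PFD, 6.92, 8.13 and 136 CPM in RIC+DE, and 4.21, 5.02 and 3.11 CPM in DE+RIC. RIC+DE+PFD libraries gave 1.15, 3.81 and 4.03 CPM, and DE+PFD+RIC libraries 8.61, 6.03 and 3.36 CPM. With exhaust alone, DE libraries gave 8.41, 7.75 and 8.60 CPM. The 3 DE libraries lay close together, and none of the 18 exposed libraries other than DE+PFD 1 and RIC+DE 3 exceeded 10.7 CPM. Without exhaust, Cyp1a1 was at 6.67, 4.52 and 4.15 CPM in RIC and 153, 7.12 and 6.70 CPM in C.

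The high libraries were thus DE+PFD 1, RIC+DE 3 and C 1, of which C 1 had breathed no exhaust. They held 8913 of the 10152 Cyp1a1 counts, or 87.8%. The lowest of them was 12.8-fold above the highest of the other 21. All 3 carry the March date, and the other 6 March libraries spanned 1.15 to 8.61 CPM. The group means carry them. DE+PFD averaged 103 ± 165 CPM and RIC+DE 50.4 ± 74.3 CPM, against 8.25 ± 0.446 CPM in DE, and C averaged 55.6 ± 84.4 CPM (SD, n = 3 each).

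Other genes of the pathway were set beside Cyp1a1 in the same 3 libraries. Nqo1, a quinone reductase controlled by both this receptor and Nrf2, took the highest places of all 24 there, at 30.4 CPM in DE+PFD 1, 18.5 CPM in RIC+DE 3 and 31.3 CPM in C 1. The next libraries were RIC+DE+PFD 1 at 18.0 CPM, where Cyp1a1 was lowest, and RIC+DE 1 at 13.4 CPM, and the other 19 lay at 4.46 to 10.7 CPM. Other receptor-related genes had mixed places among the 24 in DE+PFD 1, RIC+DE 3 and C 1, in that order. Cyp2s1 was at places 4, 5 and 2, Nfe2l2 at 3, 19 and 4, and Ephx1 at 5, 15 and 3. Socs2 was at 16, 13 and 7, Scin at 3, 13 and 9, and Ido1 at 2, 12 and 8. Por was at 23, 20 and 17, Gstp1 at 11, 16 and 20, and Sult1a1 at 15, 21 and 10. Cyp1b1, a second inducible cytochrome, was at 25.2 CPM in DE+PFD 1, 20.0 CPM in RIC+DE 3 and 20.2 CPM in C 1, below DE 1 alone among the other 21. Aldh3a1 was at 106 CPM in DE+PFD 1, 57.5 CPM in RIC+DE 3 and 60.7 CPM in C 1, inside the range of the other 21. These were places 2, 7 and 5 of the 24, in that order.

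The feedback genes took no such places in these libraries. Tiparp was at 30.3 CPM in DE+PFD 1, 29.6 CPM in RIC+DE 3 and 35.6 CPM in C 1, with 2 to 7 of the other 21 above each. Ahrr gave 1 count in DE+PFD 1, 8 in RIC+DE 3 and 6 in C 1. Vascular endothelium, a site of Cyp1a1 induction in lung, was checked through 7 markers. They summed to 3333 CPM in DE+PFD 1, 2841 CPM in RIC+DE 3 and 3049 CPM in C 1, within the 2238 to 3756 CPM of the other 21 libraries. Summed markers of skeletal muscle were 1035 CPM in RIC+DE 3, 27.9 CPM in DE+PFD 1 and 7.86 CPM in C 1. The highest sum, 1949 CPM, was in RIC+DE 1, where Cyp1a1 was at 6.92 CPM. Other lists outside the range of the other 21 were smooth muscle in C 1, at 438 CPM against 682 to 1412 CPM, and 2 in RIC+DE 3. These were alveolar macrophages, at 304 CPM against 357 to 1223 CPM, and fibroblasts, at 1750 CPM against 722 to 1720 CPM. The part of these lists in Cyp1a1 was not tested.

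**Figure D2:**
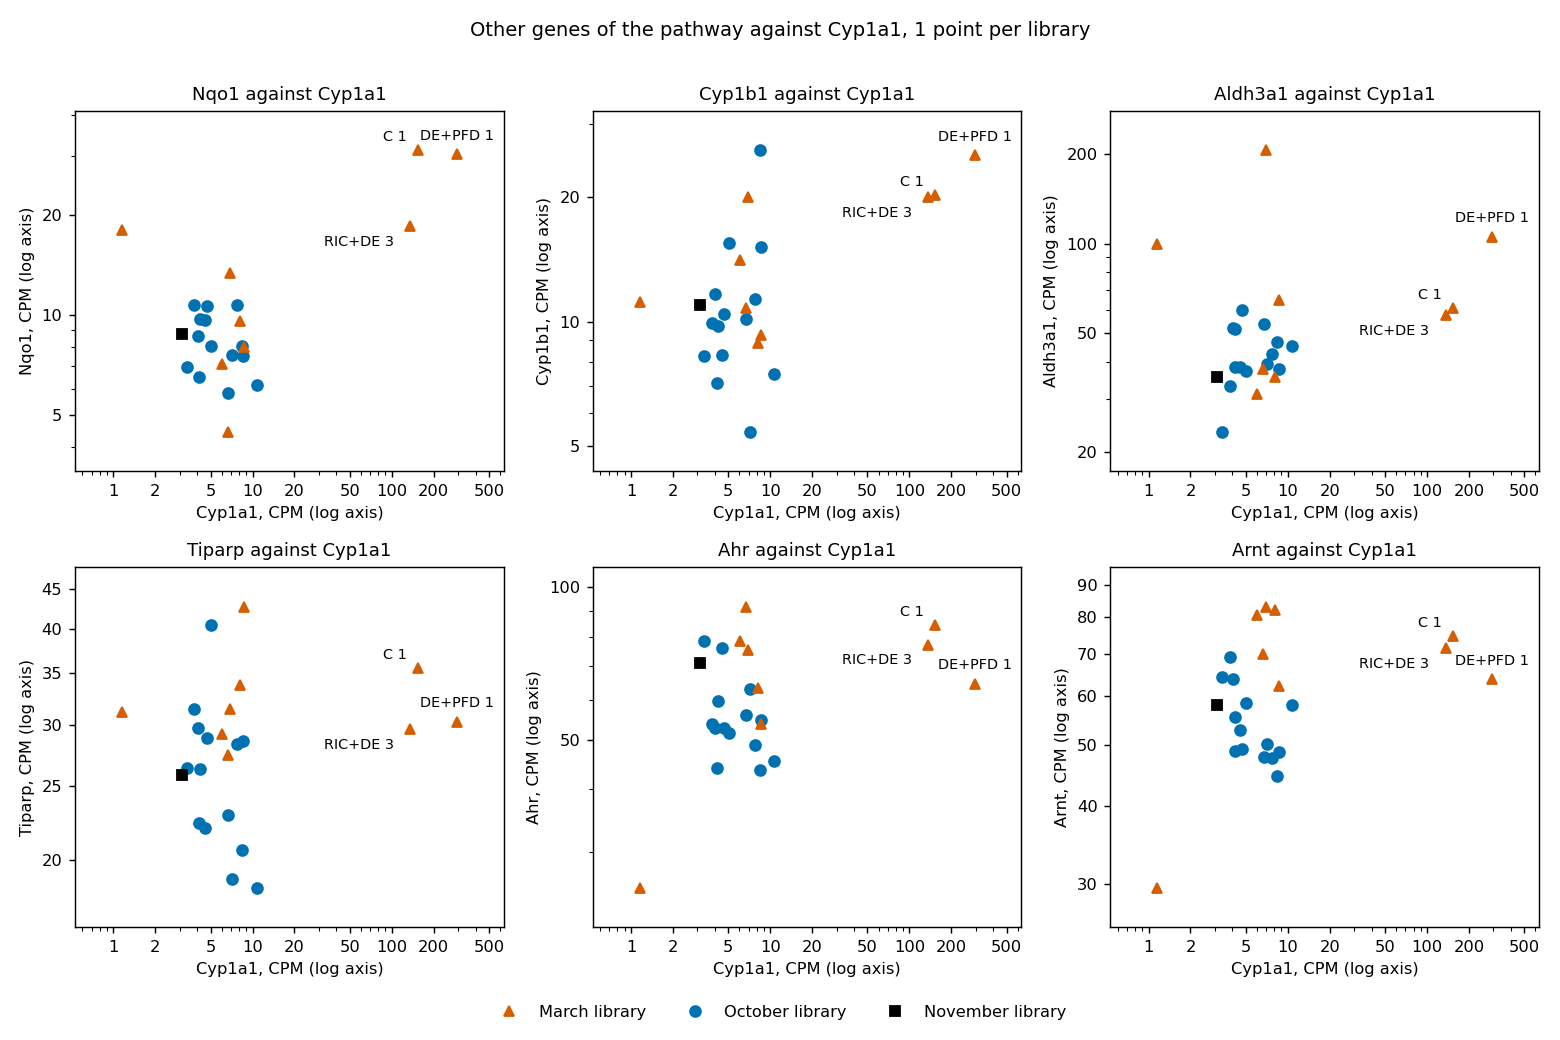
CPM of 6 genes against Cyp1a1, both on log axes, 1 point per library coloured by date, with the libraries DE+PFD 1, RIC+DE 3 and C 1 named. Nqo1 is highest in these 3 (18.5 to 31.3 CPM), while Tiparp, Ahr and Arnt lie within the range of the other 21 libraries.

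No pathway gene passed the test between exhaust and control lungs. In DE minus C, 0 of the 6 tested genes reached an adjusted p under 0.05 in edgeR's quasi-likelihood test with date and group terms, and 0% of the 17490 genes did. At an unadjusted p under 0.05 there was 1 of the 6, Cyp1b1, against 3.33% of all genes. DESeq2 gave no p for Cyp1a1 in any comparison. Here it called 0 of the other 5, and 0.0524% of the genes it tested. Of the 6 log2 fold changes, 2 were above 0 and 4 below, with a median of -0.14, where 49.9% of all genes were above 0.

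Cyp1b1 was measured at 25.9, 11.3 and 15.1 CPM in DE and 20.2, 5.43 and 10.2 CPM in C. The groups overlapped. The fitted log2 fold change was 0.94 ± 0.39 (SE), with an unadjusted p of 0.0258 and an adjusted p of 0.988. Without DE 1, the highest of the 24 libraries, it was 0.53, and among October libraries alone it was 1.17 ± 0.36 with an adjusted p of 0.569. DE 1 also held the largest sum of 5 adipocyte markers, at 2373 CPM in a series range of 112 to 2373 CPM. Its sum of 3 B cell markers was the largest too, at 349 CPM in a range of 25.4 to 349 CPM. Its 7 vascular endothelium markers summed to 2675 CPM, place 23 of 24. The part of these lists in Cyp1b1 was not tested.

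Ahr itself was at 43.7, 48.9 and 54.7 CPM in DE and 84.4, 63.1 and 56.0 CPM in C. All DE libraries lay below all C libraries, as did 6.88% of all tested genes. The log2 fold change of -0.43 ± 0.28 had an adjusted p of 0.988. The receptor's partner Arnt was at 44.7, 47.7 and 48.8 CPM in DE and 74.7, 50.3 and 47.8 CPM in C. These overlapped, with a log2 fold change of -0.25 ± 0.25 and an adjusted p of 0.988. Without C 1 the values were -0.28 for Ahr and -0.06 for Arnt.

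For Cyp1a1 the DE minus C value was -0.62 ± 1.17 with an adjusted p of 0.988. Without the date term it was -2.77 ± 1.28 (adjusted p = 0.982), and without C 1 it was 0.26. It was 0.26 ± 0.45 with all 3 high libraries left out, a choice made after the values were seen. Among October libraries alone, DE at 7.75 to 8.60 CPM against C at 7.12 and 6.70 CPM, it was 0.26 ± 0.28 with an adjusted p of 0.851. Tiparp, an ADP-ribosyltransferase that turns the receptor down, was at 0.16 ± 0.22, and Aldh3a1 at -0.03 ± 0.47.

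Ahrr, the repressor that competes for Arnt, was near the limit of detection. It had 83 counts in all 24 libraries together, at most 10 in any, and was seen in 21. In DE it gave 6, 2 and 3 counts and in C 6, 2 and 2 counts, so a difference was not detectable at this depth. Cyp1a2, known mainly as a liver enzyme, had 1 count in DE+RIC 3, 1 in C 1 and 0 in the other 22. A count of 0 in the shallowest library allows up to 0.768 CPM, for counting error only.

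All 18 exposed libraries were also set against the 6 unexposed ones. In edgeR 0 of the 6 genes passed, as did 0% of all genes, and 1 of the 6, Tiparp, had an unadjusted p under 0.05, against 3.02% of all genes. DESeq2 called 0 of 5, and 0.00485% of its genes. Tiparp averaged over exposed libraries was 29.6 CPM and over unexposed ones 24.9 CPM, with overlap, a log2 fold change of 0.26 ± 0.12 and an adjusted p of 1. Ahr was -0.29 ± 0.16, Cyp1b1 0.41 ± 0.22 and Cyp1a1 -0.18 ± 0.67, each with an adjusted p of 1. Exposed Cyp1a1 spanned 1.15 to 294 CPM and unexposed Cyp1a1 4.15 to 153 CPM.

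Conditioning alone was compared as RIC minus C. In edgeR 0 of 6 genes passed, against 0% of all genes, and 0 of 6 had an unadjusted p under 0.05, against 1.2% of all genes. DESeq2 called 0 of the 5 genes to which it gave a p, and 0.00485% of all its genes. Every RIC library, at 6.67, 4.52 and 4.15 CPM, had less Cyp1a1 than every C library, at 153, 7.12 and 6.70 CPM. The closest values, 6.67 CPM in RIC 1 (March) and 6.70 CPM in C 3 (October), were nearly equal. Groups without overlap in this direction were found for 2.67% of all tested genes. The log2 fold change was -2.24 ± 1.21 with an adjusted p of 1, and -0.67 ± 0.32 with an adjusted p of 1 in October libraries alone. Without C 1 it was -1.15, and without the date term -3.42 ± 1.32. The other 5 genes stayed within -0.36 and 0.06.

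**Figure D3:**
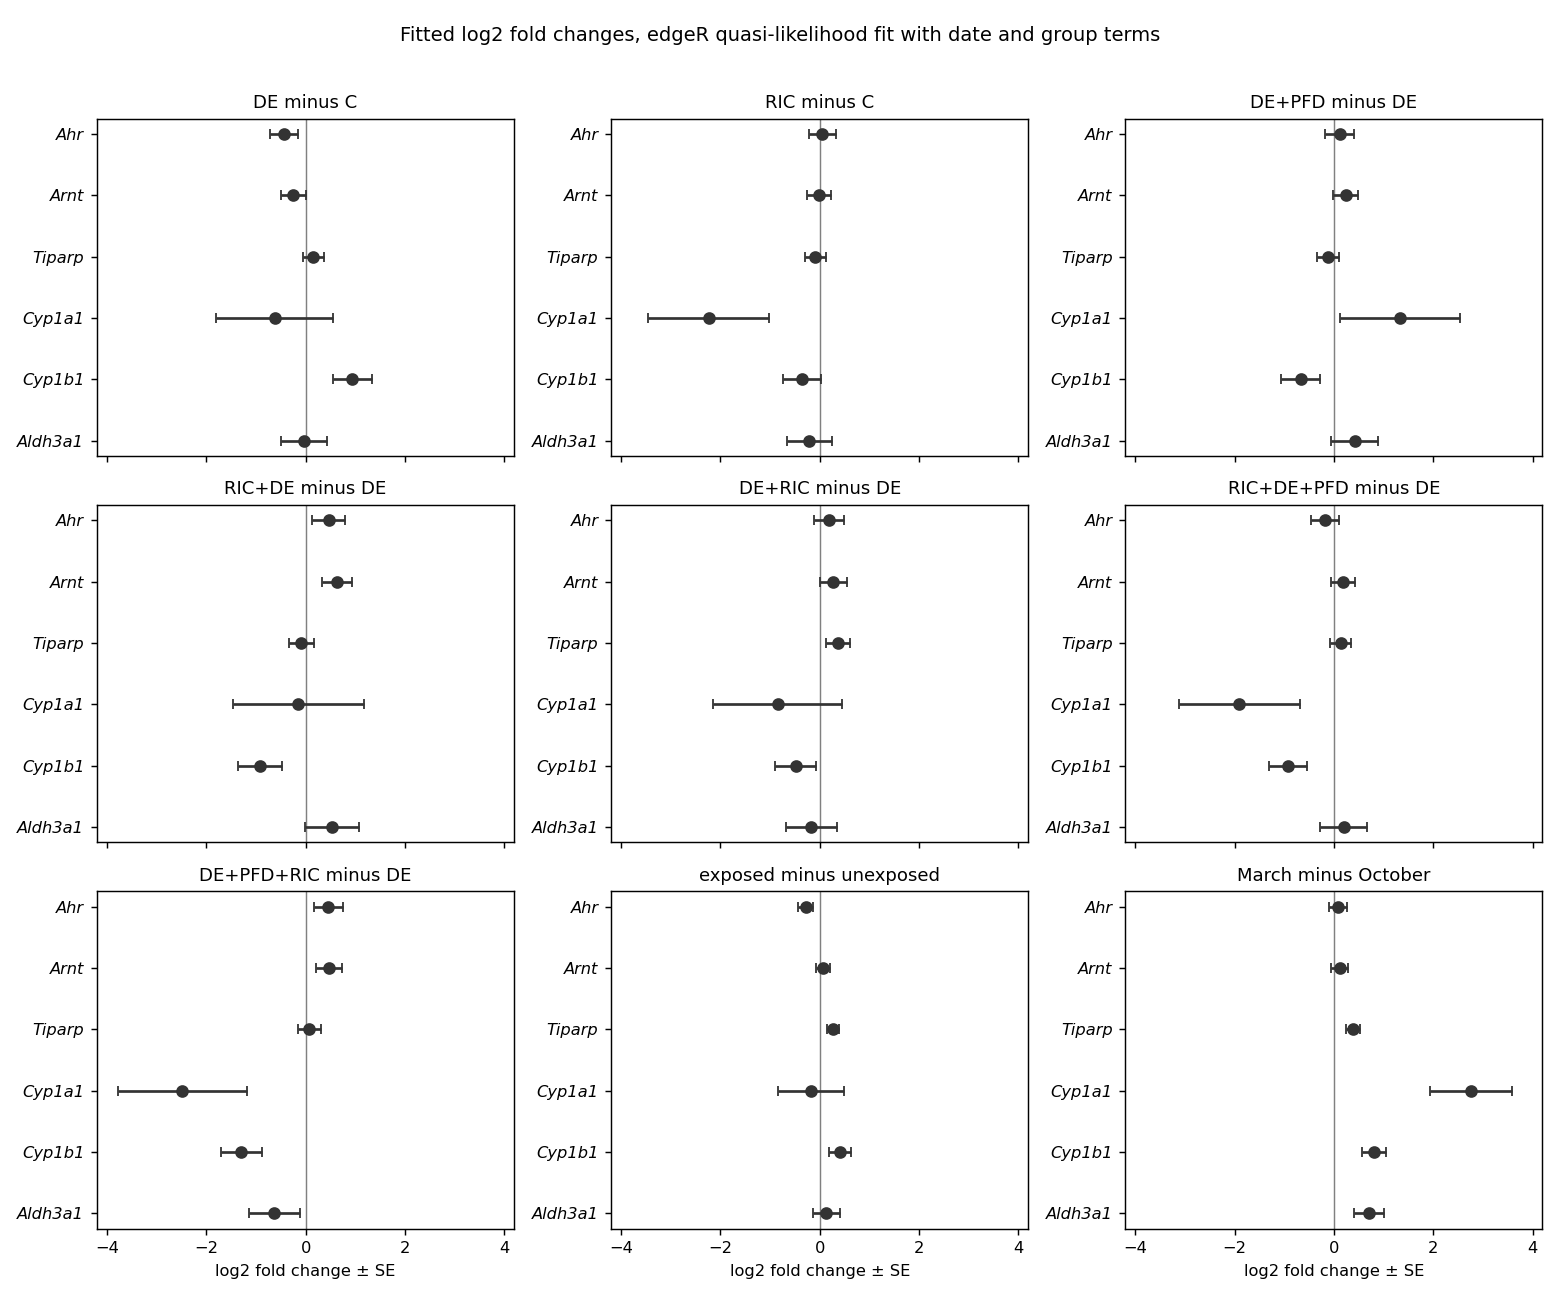
Fitted log2 fold changes with their SE for the 6 tested genes in 9 comparisons, each with the group named first minus the group named second. No change shown passed at an adjusted p of 0.05, and the errors of Cyp1a1, from 0.67 to 1.32, are the widest of the 6 genes in every panel.

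Among exposed lungs, each treatment was set against DE, and these 5 comparisons share the same 3 DE libraries. In edgeR 0 of the 6 genes passed in any of them, with 0% of all genes in each. DESeq2 also called 0 of 5 in each, against 0.0363% of its genes in DE+PFD minus DE, 0.443% in RIC+DE, 0.047% in DE+RIC, 0.224% in RIC+DE+PFD and 0.114% in DE+PFD+RIC minus DE. Unadjusted p-values under 0.05 came from 0 of 6 genes in DE+PFD minus DE, against 2.84% of all genes, and 1 of 6 in RIC+DE minus DE, against 17.3%. They came from 0 of 6 in DE+RIC minus DE, against 3.23%, 1 of 6 in RIC+DE+PFD minus DE, against 9.52%, and 1 of 6 in DE+PFD+RIC minus DE, against 9.23%.

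Cyp1b1 had a fitted value below 0 in each of the 5. DE+PFD+RIC was at 9.30, 14.1 and 8.28 CPM, RIC+DE+PFD at 11.2, 9.90 and 11.6 CPM, and DE+RIC at 9.73, 15.5 and 10.9 CPM. DE+PFD was at 25.2, 7.48 and 10.4 CPM and RIC+DE at 19.9, 8.88 and 20.0 CPM. DE was at 25.9, 11.3 and 15.1 CPM, and every treated group overlapped it. The log2 fold change was -1.29 ± 0.41 in DE+PFD+RIC (adjusted p = 0.526), -0.92 ± 0.38 in RIC+DE+PFD (adjusted p = 0.473) and -0.91 ± 0.44 in RIC+DE (adjusted p = 0.293). It was -0.67 ± 0.39 in DE+PFD and -0.49 ± 0.42 in DE+RIC, both with an adjusted p of 1. Without DE 1 the value was -0.89 in DE+PFD+RIC, -0.51 in RIC+DE+PFD, -0.50 in RIC+DE, -0.26 in DE+PFD and -0.08 in DE+RIC. Without the date term it was -0.72 in DE+PFD+RIC, -0.25 in DE+PFD and -0.10 ± 0.43 in RIC+DE, which shares no date with DE.

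Cyp1a1 was lower than every DE library in all 3 RIC+DE+PFD libraries and all 3 DE+RIC libraries, against 6.4% and 6.03% of all genes. The log2 fold change was -1.90 ± 1.22 in RIC+DE+PFD (adjusted p = 0.582) and -0.85 ± 1.30 in DE+RIC (adjusted p = 1). In October libraries alone, where no library exceeds 10.7 CPM, the values were -1.08 ± 0.30 (adjusted p = 0.116) and -0.85 ± 0.30 (adjusted p = 0.652). DE+PFD+RIC gave -2.48 ± 1.30 (adjusted p = 0.526), and -1.31 ± 0.40 (adjusted p = 0.127) in October, where it has 1 library. It overlapped DE, and gave -0.44 ± 1.30 without the date term and -0.62 ± 0.50 without the 3 high libraries. DE+PFD gave 1.33 ± 1.21, -0.21 without DE+PFD 1 and 3.66 ± 1.32 without the date term (adjusted p = 0.995).

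The RIC+DE value of Cyp1a1 depends on the date term, since RIC+DE and DE share no date. Their means of 50.4 and 8.25 CPM gave a log2 fold change of -0.14 ± 1.32 with the date term and 2.62 without it. Leaving out RIC+DE 3 gave -2.88. None of these passed the test.

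**Figure D4:**
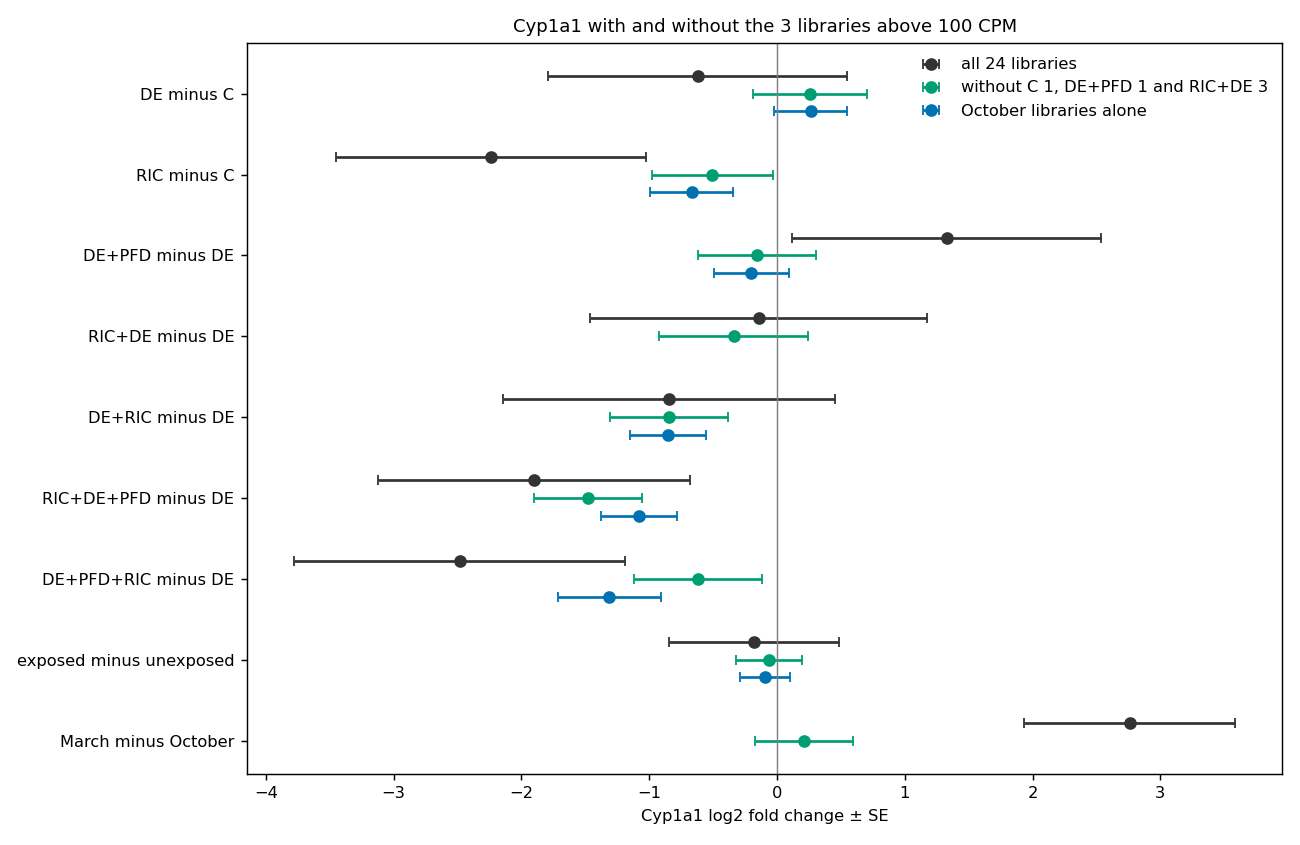
Log2 fold change of Cyp1a1 with its SE in 9 comparisons, from all 24 libraries, without DE+PFD 1, RIC+DE 3 and C 1, and from October libraries alone (5 of the 6 exposed groups, no RIC+DE). In March minus October the value is 2.76 with all libraries and 0.21 without the 3, which were picked for high Cyp1a1 and are all from March.

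Arnt lay above every DE library in 4 of the 5 treated groups. RIC+DE libraries were at 83.2, 82.3 and 71.4 CPM, against 44.7, 47.7 and 48.8 CPM in DE, and 20.8% of all genes lay above DE in this way. DE+PFD+RIC libraries were at 62.3, 80.7 and 64.2 CPM (15.5% of all genes), DE+RIC at 55.4, 58.5 and 58.0 CPM (6.3%), and DE+PFD at 63.8, 57.9 and 49.4 CPM (5.91%). RIC+DE+PFD had 29.6, 69.1 and 63.7 CPM and overlapped DE. The largest of the fitted values was 0.63 ± 0.29 in RIC+DE, with an unadjusted p of 0.0436 and an adjusted p of 0.283. Without RIC+DE+PFD 1, a library of neither group, it was 0.38.

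Arnt moved with a property of the libraries. Each library was given a length trend, the Spearman correlation over genes between exon length and the gene's departure from its median. It covered the 16269 of 17490 tested genes that had an exon length. The RIC+DE libraries had trends of 0.38, 0.47 and 0.42, and the DE libraries -0.28, -0.31 and -0.21. Across the 24 libraries Arnt and this trend ranked together with a Spearman rho of 0.944, a value that 0.0743% of 17490 genes reached. For Ahr the rho was 0.706 (11.3% of genes) and for Tiparp 0.428 (25.1%). Arnt and Ahr have exons of 8007 and 6163 bases, longer than those of 84.1% and 73.2% of tested genes. These rhos are descriptions over libraries that share date and depth, and the part of the trend in the Arnt values was not tested.

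Ahr was at 75.4, 63.2 and 77.1 CPM in RIC+DE, above all DE libraries (20.8% of genes), with a log2 fold change of 0.47 ± 0.33 and an adjusted p of 0.43, and 0.25 without RIC+DE+PFD 1. DE+PFD+RIC was at 53.7, 78.3 and 78.6 CPM, DE+RIC at 59.8, 51.6 and 71.1 CPM, DE+PFD at 64.6, 45.4 and 52.8 CPM, and RIC+DE+PFD at 25.5, 53.7 and 52.9 CPM. All of these overlapped DE. The lowest Ahr and the lowest Arnt of the series were both in RIC+DE+PFD 1, whose length trend, -0.55, was the lowest and whose 4 club cell markers summed to 170959 CPM, against 19237 to 62578 CPM elsewhere. Without that library RIC+DE+PFD minus DE was 0.11 for Ahr and 0.49 for Arnt, against -0.17 ± 0.28 and 0.18 ± 0.25 with it.

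Aldh3a1, an enzyme abundant in cornea, stomach and oesophagus, was at 206, 35.7 and 57.5 CPM in RIC+DE, 106, 45.4 and 59.6 CPM in DE+PFD, and 99.8, 33.2 and 52.0 CPM in RIC+DE+PFD. DE+RIC libraries had 38.4, 37.2 and 35.6 CPM and DE+PFD+RIC libraries 64.7, 31.2 and 23.4 CPM. DE libraries had 46.6, 42.6 and 37.9 CPM, RIC 38.0, 38.7 and 51.5 CPM, and C 60.7, 39.6 and 53.7 CPM. The 3 highest libraries were RIC+DE 1, DE+PFD 1 and RIC+DE+PFD 1, all from March.

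In RIC+DE 1, the library with the most Aldh3a1, 7 of 7 markers of squamous and basal epithelium were present. They summed to 4164 CPM there and to 0.527 to 14.8 CPM in the other 23, with Krt13 at 2020 CPM and Krt4 at 1815 CPM, neither above 1.76 CPM elsewhere. By group the sums ran from 0.527 to 4164 CPM in RIC+DE, 3.74 to 14.8 CPM in DE+PFD, 2.57 to 3.18 CPM in RIC+DE+PFD, 1.81 to 3.21 CPM in DE+RIC and 0.691 to 8.27 CPM in DE+PFD+RIC. They were 2.68 to 14.5 CPM in DE, 1.60 to 4.08 CPM in RIC and 1.11 to 2.48 CPM in C. Their part in the Aldh3a1 values was not tested. The fitted RIC+DE minus DE value was 0.53 ± 0.55 (adjusted p = 0.598), -0.58 without RIC+DE 1 and 1.24 ± 0.49 without the date term (adjusted p = 0.138). DE+PFD 1 and RIC+DE+PFD 1 had high Aldh3a1 with squamous sums of 10.8 and 2.57 CPM.

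**Figure D5:**
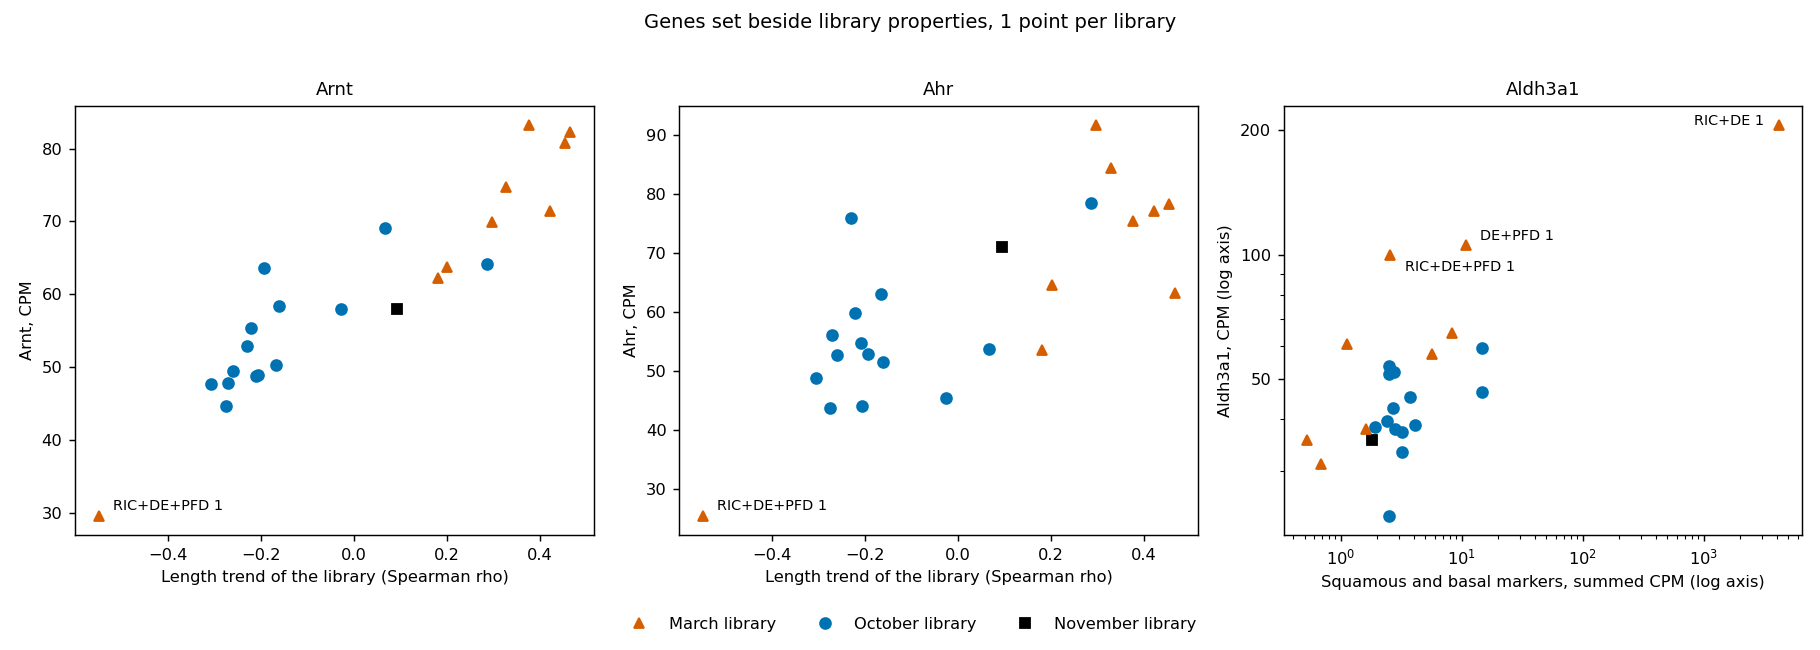
Left and middle, Arnt and Ahr in CPM against the length trend of each library (a Spearman rho, no unit); right, Aldh3a1 against the summed CPM of 7 squamous and basal markers, both on log axes; points are libraries coloured by date. Arnt and Ahr are lowest in RIC+DE+PFD 1, which has the lowest trend at -0.55, and RIC+DE 1 stands alone at 4164 CPM of squamous markers.

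Tiparp ranged from 18.4 to 42.7 CPM, the narrowest spread of the 6 tested genes, at 2.32-fold. RIC+DE, at 29.6 to 33.8 CPM, and RIC+DE+PFD, at 29.7 to 31.4 CPM, lay above DE, at 20.6 to 28.6 CPM, as did 20.8% and 5.56% of all genes. Fitted values against DE ran from -0.12 in DE+PFD to 0.37 ± 0.23 in DE+RIC, which had an adjusted p of 1. The DE+RIC value was 0.03 without DE+RIC 2 and 0.65 without DE+RIC 1. For RIC+DE the fitted value was -0.09 ± 0.25 with the date term and 0.30 ± 0.24 without it. With the term kept it was 0.02 without C 1, and 0.08 ± 0.30 without DE+PFD 1, RIC+DE 3 and C 1. Its sign thus turned on the term and on libraries left out. The highest library was DE+PFD+RIC 1, which also had the most Hsp90aa1, a chaperone of the receptor complex, at 1952 CPM against at most 981 CPM elsewhere.

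More of these genes had small p-values between dates than in any treatment comparison. In the same fit all 6 tested genes were above 0 in March minus October, where 53.2% of all genes were, with a median of 0.54 against 0.02 for all genes. In edgeR 0 of 6 passed at an adjusted p under 0.05, against 0.00572% of genes, and 4 of 6 had an unadjusted p under 0.05, against 14.8%. DESeq2 called 1 of 5, Cyp1b1, at 0.82 ± 0.26 (adjusted p = 0.0499), with 3.6% of its genes.

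Cyp1a1 spanned 1.15 to 294 CPM in 9 March libraries, with a median of 8.13 CPM, and 3.36 to 10.7 CPM in 14 October libraries, with a median of 4.85 CPM. The log2 fold change was 2.76 ± 0.83 (adjusted p = 0.139), and 0.21 ± 0.38 without DE+PFD 1, RIC+DE 3 and C 1. These 3 March libraries were picked for their high Cyp1a1, so a lower Cyp1a1 value without them follows from the choice. Cyp1b1 gave 0.81 ± 0.25 (adjusted p = 0.144), and 0.35 ± 0.31 without them. Tiparp gave 0.38 ± 0.14 (adjusted p = 0.209) and Aldh3a1 0.71 ± 0.31 (adjusted p = 0.298). Ahr was at 0.09 ± 0.18 and Arnt at 0.12 ± 0.16. Without the 3 libraries, 4 of the 6 genes were above 0, with Ahr at -0.17 ± 0.24 and Arnt at -0.12 ± 0.22, and 0 of the 6 had an unadjusted p under 0.05. Tiparp was then at 0.26 ± 0.19 and Aldh3a1 at 0.71 ± 0.41.

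In the 5 groups that hold both dates, the March mean of log2 CPM was above the October mean in 5 of 5 for Cyp1b1 and for Tiparp, which 4.84% of all genes matched. It was higher in 4 of 5 for Cyp1a1, Aldh3a1 and Arnt and in 3 of 5 for Ahr. The share of all genes at 4 of 5 or 3 of 5 was not computed. For Cyp1a1 the exception was RIC+DE+PFD, at 1.15 CPM in March and 3.92 CPM in October. In C it was 153 CPM in the March library and 6.91 CPM on average in the October ones. The March fit is sensitive to RIC+DE+PFD 1. Without it 2317 genes passed, against 1 of 17490 with it, so calls were then common among all genes. The 2317 included Cyp1a1 at 3.53 ± 0.78 (adjusted p = 0.00903) and Cyp1b1 at 1.00 ± 0.26 (adjusted p = 0.0196). They also included Arnt at 0.39 ± 0.09 (adjusted p = 0.0109) and Tiparp at 0.48 ± 0.14 (adjusted p = 0.0327).

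A list of 22 other genes tied to the receptor gave 17 that could be tested. They cover the complex that holds the receptor, the Nqo1 and Nrf2 branch, other reported targets and enzymes that handle aromatic hydrocarbons. None of the 17 passed in any comparison in edgeR, in either direction, where 0.00572% of all genes did in March minus October and 0% in each of the others. In DE minus C, 11 were above 0 and 6 below, where 49.9% of all genes were above 0, with a median of 0.13. Of the 17, 0 had an unadjusted p under 0.05, against 3.33% of all genes. Those with the smallest p were Ido1, a tryptophan-degrading enzyme, at -0.88 ± 0.61, the chaperone Hsp90aa1 at 0.65 ± 0.48 and the coactivator Ncoa1 at -0.28 ± 0.26, each with an adjusted p of 0.988.

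In exposed minus unexposed lungs 14 of the 17 were above 0, as were 51% of all genes, with a median of 0.14 where all genes had 0.0035. Scin, an actin-severing protein reported as a target, was at 0.92 ± 0.47, Por, the reductase that feeds electrons to cytochromes, at 0.19 ± 0.10 and the sulfotransferase Sult1a1 at 0.39 ± 0.21. All had an adjusted p of 1. In March minus October Nqo1 was at 0.97 ± 0.30 (adjusted p = 0.144), Por at -0.34 ± 0.11 (adjusted p = 0.175) and the co-chaperone Ptges3 at 0.40 ± 0.19 (adjusted p = 0.332). Against DE, Ido1 was at 2.17 ± 0.62 in DE+PFD (adjusted p = 1) and Gstp1, a glutathione transferase, at 0.87 ± 0.36 in RIC+DE+PFD (adjusted p = 0.485). Both had an unadjusted p under 0.05 and are named after their values were seen. Each was 1 of 17 in its comparison, against 2.84% of all genes in DE+PFD minus DE and 9.52% in RIC+DE+PFD minus DE.

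For each tested gene, the 3 genes with the most similar order of levels over the 24 libraries were found among 13651 genes, by Spearman rho of log2 CPM. For Ahr they were Slc6a6 (0.91), Fzd6 (0.88) and Tgfbr2 (0.86), and for Arnt Herc2 (0.97), Sel1l (0.97) and Secisbp2l (0.96). Tiparp was nearest to Dnaja2 (0.88), Cenpu (0.84) and Cldn12 (0.82). Cyp1b1 was nearest to Acadl (0.73), Wif1 (0.70) and Rcbtb2 (0.70), and Aldh3a1 to Cldn4 (0.74), Rhov (0.74) and Pir (0.72). Cyp1a1 had the weakest leading match, Gxylt2 (0.71), before Clca3a1 (0.70) and Dennd1b (0.69). These rhos describe libraries that share group, date and depth.

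The pathway's own genes were not each other's nearest matches. For Cyp1a1, Aldh3a1 (0.38) stood at place 939 of 13651 and Cyp1b1 (0.36) at place 1242, and Ahr, Arnt and Tiparp were at 0.13, 0.18 and 0.13. For Ahr, Arnt (0.71) stood at place 538. Within the 14 October libraries Cyp1a1 and Arnt had a rho of -0.64, and within the 9 March libraries one of 0. In October this was the furthest from 0 of the Cyp1a1 pairs. The October rhos of Cyp1a1 were -0.39 with Ahr, -0.42 with Tiparp, 0.25 with Cyp1b1 and 0.24 with Aldh3a1. In March they were 0.10, 0.35, 0.55 and 0.25 in the same order.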

How the data were processed

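Poly(A)-selected, strand-specific libraries were made from lung RNA, per the labels' protocols. The submitters' processing notes name FastQC 0.12.1, fastp 0.23.4, STAR 2.7.11b, featureCounts, R 4.4.1, DESeq2 and the build GRCm39. The authors deposited whole-number read counts per gene with no scaling. The sources used here do not give the annotation release, strand setting or treatment of multiply mapped reads. Reads shared between Cyp1a1 and Cyp1a2, close relatives, may therefore be split in a way that is not known. Symbols and exon lengths came from an annotation of GRCm38, matched by identifier (51486 of 78275 genes had a symbol).

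The test was edgeR 4.0.16 in R 4.3.3, fitted over all 24 libraries (low-count filter with a minimum of 10, TMM scaling, quasi-likelihood fit with date and group terms, Benjamini-Hochberg adjustment over 17490 genes, threshold 0.05). CPM used TMM-scaled totals, and log2 CPM a prior count of 2. Standard errors were derived from each test's F and fold change. The fit was tested on simulated data. No pair of libraries was a copy (chi-square per gene 5.41 to 206). Named are the 8 genes, the 3 genes most like each, and, of the wider list, any called and otherwise the 3 with the smallest p in 3 comparisons. The alternatives included DESeq2 1.42.0, its size factors, other filters, no date term, November put with October, October alone, the replicate number as a block, and each library left out. The members, lists and tests were chosen with earlier results of these data known. The result of 1 gene of the wider list is not reported here.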

Additional observations from a re-analysis of the deposited data

How the results depend on the processing

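The 54 fold changes of the 6 tested genes were recomputed 1764 times, under 10 whole alternatives and with each of 24 libraries left out in turn. None reversed, counting as reversed a sign change where both values exceeded their SE or 1 was called, and 24 of the 54 changed sign at least once, among them Cyp1a1 in RIC+DE minus DE, at 2.62 ± 1.28 without the date term. In 13 recomputations a gene was called that otherwise was not. With no low-count filter these were Cyp1a1 in RIC minus C, DE+PFD minus DE, RIC+DE+PFD minus DE, DE+PFD+RIC minus DE and March minus October, Cyp1b1 in DE+PFD+RIC minus DE and March minus October, and Aldh3a1 in March minus October. Of the 41345 genes tested in that fit, 63 were called in RIC minus C, 180 in DE+PFD and 347 in RIC+DE+PFD minus DE. There were 306 in DE+PFD+RIC minus DE and 317 in March minus October. The SE of Cyp1a1 in RIC minus C was then 0.29. The cause was not tested. The rest of the 13 were in March minus October, Cyp1b1 with DESeq2 and 4 genes without RIC+DE+PFD 1.

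Counts of genes called, over all genes, moved more. With DESeq2 they were 17 in DE minus C, 2 in RIC minus C, 15 in DE+PFD, 80 in RIC+DE, 13 in DE+RIC, 69 in RIC+DE+PFD and 17 in DE+PFD+RIC minus DE, 2 in exposed minus unexposed and 535 in March minus October. With no low-count filter they were 199, 63, 180, 1129, 229, 347, 306, 114 and 317 in the same comparisons, and 2792 for any difference among the 8 groups. A filter of CPM 1 in 3 libraries gave 18 in March minus October. Without the date term there were 102 in RIC+DE, 3 in DE+RIC, 9 in RIC+DE+PFD and 8 in DE+PFD+RIC minus DE, and 94 for any difference. With November put in October there were 2 in DE+RIC minus DE, 13 in March minus October and 4 for any difference. October alone gave 1 in DE+RIC, 41 in RIC+DE+PFD and 1 in DE+PFD+RIC minus DE, and 1 in exposed minus unexposed over 5 exposed groups. Without DE+PFD 1, RIC+DE 3 and C 1 there was 1 in DE+RIC minus DE and 0 in March minus October. The causes were not tested.

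Libraries with the same replicate number deviated together in 16 of 84 pairs (correlation over 0.1, range -0.39 to 0.41), and 8 of 24 correlated best with their own number, so the number was not taken as a pairing. With it as a replicate block beside the date, 16 genes were called in RIC+DE minus DE, 0 in March minus October and 18 for any difference.

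Leaving out each library in turn gave 0 to 16 genes in DE minus C, 0 to 13 in DE+PFD, 0 to 54 in RIC+DE, 0 to 14 in DE+RIC, 0 to 36 in RIC+DE+PFD and 0 to 19 in DE+PFD+RIC minus DE, 0 to 84 for any difference and 0 to 2317 in March minus October. The 54 and 84 came without RIC+DE 2, the 2317 without RIC+DE+PFD 1 and the other maxima without DE 2. A group left with 2 libraries, or with 1, was assumed to vary like the others. RIC+DE could not be fitted in October alone. Depth limits Ahrr and Cyp1a2, for which no fold was fitted.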

Other observations

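A comparison of all conditioned with all unconditioned lungs was made after the values had been seen, so its p-values are no independent evidence. In March, Cyp1a1 exceeded 100 CPM in 1 of 7 conditioned libraries, which spanned 1.15 to 136 CPM, and in 2 of 2 unconditioned libraries, at 294 and 153 CPM. In October it spanned 3.36 to 5.02 CPM in 7 conditioned libraries, with a median of 4.15 CPM, and 4.67 to 10.7 CPM in 7 unconditioned ones, with a median of 7.75 CPM. DE+PFD 3, at 4.67 CPM, was the only unconditioned October library inside the conditioned range. The November library, DE+RIC 3, was conditioned and had 3.11 CPM.

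The contrast averaged conditioned minus unconditioned lungs over those with no exhaust, with exhaust, and with exhaust and pirfenidone, in edgeR with the date term. The October fit had no date term and no RIC+DE library, so DE+RIC alone stood for conditioning with exhaust. Over all 24 libraries Cyp1a1 had a log2 fold change of -2.08 ± 0.60 (adjusted p = 1), place 15 of 17490 genes by p. None of those genes was called, with 3.87% at an unadjusted p under 0.05. In October libraries alone it was -0.84 ± 0.18 (adjusted p = 0.886), place 4 of 17477. Without DE+PFD 1, RIC+DE 3 and C 1 it was -0.66 ± 0.30 (adjusted p = 0.696), place 658 of 17473. Those libraries were picked for their high Cyp1a1, and DE+PFD 1 and C 1 are unconditioned, so this value depends on the choice. Cyp1b1 was at -0.50 ± 0.20, -0.17 ± 0.21 and -0.16 ± 0.25 in these 3 fits, and Ahr at 0.14 ± 0.15, 0.19 ± 0.12 and 0.33 ± 0.20. None of the 6 tested genes passed in any of the 3. An unadjusted p under 0.05 was found for 2 of the 6 in all 24 libraries, Cyp1a1 and Cyp1b1. In October alone it was found for 3 of the 6, against 5.24% of all genes, which were Cyp1a1, Arnt at 0.21 ± 0.07 and Aldh3a1 at -0.32 ± 0.13 (adjusted p = 0.886 each). Without the 3 libraries it was found for 2 of the 6, Cyp1a1 and Arnt at 0.38 ± 0.17 (adjusted p = 0.696), against 4.8% of all genes.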
